A study of Mus musculus with 12 samples.

Results

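The p47 GTPases, also called immunity-related GTPases, were followed in cultured stromal cells from mouse small intestine exposed to lipopolysaccharide (LPS), a component of the outer membrane of Gram-negative bacteria. The family was taken by gene symbol as Igtp, Irgm1, Irgm2, Iigp1, Ifi47, Tgtp1 and Tgtp2. All 7 were listed in each of the 12 libraries, among 23329 listed genes. The study set embryonic against adult stroma, in 4 groups of 3 polyA RNA-seq libraries each. Embryonic stroma came from E14.5 intestines, pooled over several embryos for a culture, and adult stroma from the small intestine of adult mice after the villi were scraped off. At both stages the epithelium had been removed with EDTA, and cells were used after a few passages. Cells received LPS from Escherichia coli O111:B4, at 10 µg/µl by the labels, or PBS as the vehicle control, for 6 hours. All mice were wild type on a C57BL6/J background. The labels call all of these cells intestinal myofibroblasts.

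In mice, p47 GTPases are among the genes most strongly induced by interferons, and they act inside the cell against bacteria and protozoa that live in vacuoles. Irgm1, Irgm2 and Igtp (also called Irgm3) are the regulatory members, which sit on the cell's own membranes and hold the others in check. Iigp1 (Irga6), Ifi47 (Irgd), Tgtp1 and Tgtp2 (both called Irgb6) are effector members, which gather on the membrane of the pathogen's vacuole. LPS acts through TLR4, whose TRIF branch leads to interferon beta, and interferon beta in turn switches on genes at the interferon-stimulated response element (ISRE). Interferon gamma switches on genes at the gamma-activated sequence (GAS).

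The promoters of the family are shown because both of these sequences occur in them. RefSeq promoter windows of build GRCm38.p6, from 250 bases before to 50 bases after the annotated start, were used for 6 of the 7 genes. No window was used for Iigp1, so the motif counts of the family leave it out. The windows were searched on both strands for the ISRE core GAAANNGAAA and for the GAS TTCNNNGAA, which reads the same on both strands. The last 120 bases before the start are printed 5′ to 3′ on the gene's strand, with every base of a match in capitals.
Igtp (chr11:58199436-58199555, plus strand): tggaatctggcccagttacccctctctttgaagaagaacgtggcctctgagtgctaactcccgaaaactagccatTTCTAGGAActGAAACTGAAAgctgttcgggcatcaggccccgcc
Irgm2 (chr11:58214857-58214976, plus strand): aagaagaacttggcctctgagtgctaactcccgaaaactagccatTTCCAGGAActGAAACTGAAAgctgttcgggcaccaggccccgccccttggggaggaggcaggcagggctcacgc
Tgtp1 (chr11:48992247-48992366, minus strand): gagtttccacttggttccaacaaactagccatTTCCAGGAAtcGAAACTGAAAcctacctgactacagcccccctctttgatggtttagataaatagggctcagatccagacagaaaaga
Tgtp2 (chr11:49064213-49064332, minus strand): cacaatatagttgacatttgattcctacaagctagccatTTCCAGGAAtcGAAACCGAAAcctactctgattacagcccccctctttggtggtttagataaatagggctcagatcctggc
Irgm1 (chr11:48871421-48871540, minus strand): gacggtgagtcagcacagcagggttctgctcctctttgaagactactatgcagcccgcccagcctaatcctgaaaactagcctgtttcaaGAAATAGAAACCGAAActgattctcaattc
Ifi47 (chr11:49076467-49076586, plus strand): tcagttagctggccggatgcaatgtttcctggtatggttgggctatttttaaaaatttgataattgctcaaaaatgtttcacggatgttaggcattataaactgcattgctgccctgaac

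An ISRE core lay in 5 of these 6 windows and a GAS in 4. Among all 32841 promoter windows of the same length, 3.44% held an ISRE core, 8.30% a GAS and 0.454% both. In Igtp, Irgm2, Tgtp1 and Tgtp2 the GAS stood directly upstream of the ISRE core, and the gap was 2 bases in each. In Igtp the ISRE core ran from base -34 to base -25 of the start, in Irgm2 from -64 to -55, in Tgtp1 from -77 to -68 and in Tgtp2 from -70 to -61. The Irgm1 window held a pair of overlapping ISRE cores, at -30 to -21 and -24 to -15, and no GAS, and the Ifi47 window held neither. Once this arrangement had been seen, it was counted in all windows, and a GAS within 2 bases of an ISRE core occurred in 8 of 32841 (0.0244%). Those 8 were the 4 members, the related p47 gene Gm12185, Ifitm3, an interferon-induced antiviral membrane protein, and Usp17lc and Usp17ld. These genes are not independent examples, since the p47 promoters are related in sequence: the windows of Tgtp1 and Tgtp2 aligned with 70.1% identity. A match describes letters only, and no factor binding was measured.

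**Figure D1:**
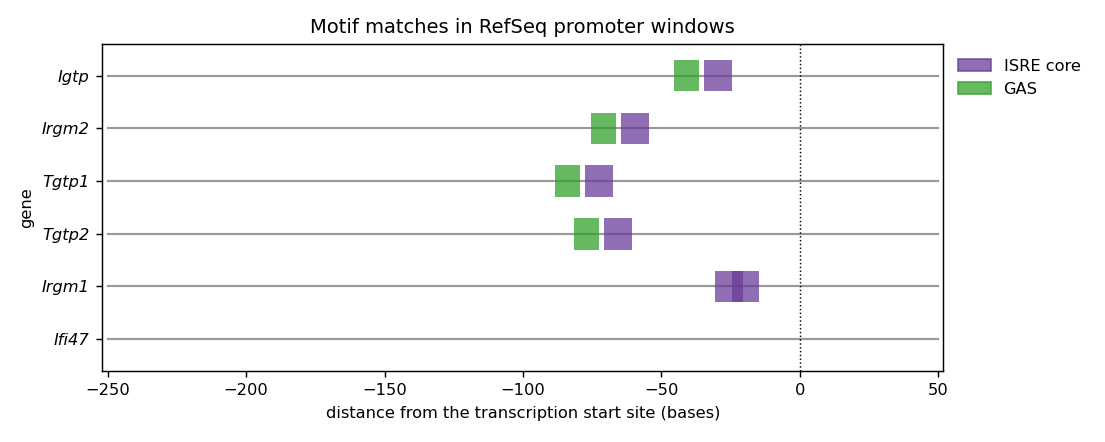
Positions of motif matches in the RefSeq promoter windows of 6 p47 GTPase genes, as distance from the transcription start site in bases on the gene's own strand. Each line is a window of 300 bases, boxes mark the ISRE core and the GAS, and the dotted line marks the start. Igtp, Irgm2, Tgtp1 and Tgtp2 each carry a GAS and an ISRE core 2 bases apart, Irgm1 carries 2 overlapping ISRE cores, and Ifi47 has no box.

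Libraries held 18850224 to 32672370 reads counted to genes. Levels are given as CPM, the read count of a gene scaled to the library's total after TMM normalization. The labelled cell type was checked against 12 fibroblast and myofibroblast markers such as Col1a1, Col1a2 and Acta2, which summed to 22150 to 45710 CPM per library. Pdgfra, a fibroblast receptor on the same list, was low in the embryonic libraries, at 2.24 to 5.83 CPM against 28.5 to 121 CPM in the adult ones, a log2 difference of -3.72 ± 0.55 with PBS (adjusted p = 0.00687, edgeR). Lymphocyte markers summed to at most 1.42 CPM. The macrophage markers summed higher in the embryonic libraries. Of 12 sought, 11 were analysed, and Adgre1 was not among the listed genes. Taken singly between the stages, 0 of the 11 had an adjusted p under 0.05 with PBS or with LPS (edgeR). All 11 had an unadjusted p under 0.05, against 2586 (PBS) and 2872 (LPS) of the 13038 tested genes. The 11 summed to 195 to 2044 CPM (PBS) and 149 to 1525 CPM (LPS) in embryonic stroma. In adult stroma they summed to 10.6 to 98.3 CPM (PBS) and 8.97 to 104 CPM (LPS), and 10 of the 11 were above 3 reads in every library. Endothelial markers reached 1789 and 1718 CPM in adult replicate 2, with PBS and LPS. In bulk samples such as these, fewer cells of a type and less RNA per cell cannot be told apart.

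All 7 p47 GTPases rose in embryonic stroma upon LPS, by 2.76 to 8.07 on the log2 scale. They passed an adjusted p under 0.05 and a log2 fold change of at least 2, thresholds that 1.87% of the 13038 tested genes passed upwards. Their median log2 fold change was 6.18, and that of all tested genes was 0. In adult stroma every member was also higher on average, by 0.46 to 4.56, and 0 of 7 passed the same thresholds (0.422% of all genes). With the replicate number of a stage as a block, 7 of 7 passed in embryonic stroma (3.02% of all genes) and 4 of 7 in adult stroma (1.6%). Tests were edgeR quasi-likelihood tests with p adjusted by Benjamini-Hochberg over the 13038 genes. Without the block each p refers to the spread between the libraries of a group. With the block, each p refers to the spread that is left after same-numbered libraries of a stage are matched. In both fits this spread was estimated over the libraries of both stages together. It is therefore not that of the embryonic libraries alone, on which 0 of 7 members passed without the block.

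Per kilobase of full transcript length, Irgm1 was the most abundant member in every library, and it had the smallest log2 fold change of the 7. Per kilobase of uniquely mappable length it was highest in 11 of 12 libraries, and in embryonic LPS replicate 3 Tgtp1 stood above it, at 541 against 460.0 CPM per kb. This regulator is known for its role in autophagy and in the handling of mycobacteria. In replicates 1, 2 and 3 of embryonic stroma it went from 103, 88.9 and 102 CPM with PBS to 636, 341 and 1005 CPM with LPS. The adult libraries held 147, 178 and 162 CPM with PBS and 169, 285 and 215 CPM with LPS. The embryonic groups were far apart, while the lowest adult LPS value lay below the highest adult PBS value. The embryonic log2 fold change was 2.76 ± 0.35 (SE, n = 3 against 3, adjusted p = 0.00306, edgeR), a fold of 6.75. The adult one was 0.46 ± 0.32 (adjusted p = 1), and 0.43 ± 0.22 with the block (adjusted p = 0.375).

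Irgm2, a regulator found on the Golgi apparatus, went from 5.93, 2.99 and 18.4 CPM to 172, 86.9 and 508 CPM in embryonic stroma. Adult cultures went from 9.004, 11.02 and 6.37 CPM to 27.6, 44.2 and 37.1 CPM. Both stages separated the treatments without overlap, and embryonic replicate 3 was the highest embryonic library with PBS as well as with LPS. The embryonic log2 fold change was 4.81 ± 0.81 (adjusted p = 0.0114, edgeR). The adult one was 2.05 ± 0.72 without the block (adjusted p = 0.53), and 2.05 ± 0.15 with it (adjusted p = 0.000256).

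Igtp, a regulator on the endoplasmic reticulum and lipid droplets, was at 1.66, 0.731 and 4.93 CPM in embryonic PBS libraries and at 83.6, 52.1 and 397 CPM in embryonic LPS libraries. Adult stroma had 1.83, 3.85 and 1.36 CPM with PBS and 10.9, 18.3 and 13.4 CPM with LPS. The PBS ranges of the stages overlapped, and every embryonic LPS value was above every adult LPS value. The embryonic log2 fold change was 6.18 ± 0.98 (adjusted p = 0.00937, edgeR). The adult one was 2.62 ± 0.86 without the block (adjusted p = 0.447) and 2.66 ± 0.20 with it (adjusted p = 0.000257).

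Iigp1, an effector that loads onto vacuoles of Toxoplasma, had the largest log2 fold change of the 7 members at both stages without the block. With it, the embryonic values of Tgtp2 (7.80) and Iigp1 (7.74) were close. It was at 1.05, 0.213 and 0.299 CPM in embryonic PBS libraries, which are 35, 7 and 10 reads, and at 57.4, 48.3 and 319 CPM with LPS. The adult values were 0.695, 0.529 and 0.954 CPM with PBS and 6.05, 30.6 and 15.7 CPM with LPS. No PBS value came near an LPS value of either stage. The embryonic log2 fold change was 8.07 ± 1.10 (adjusted p = 0.00485, edgeR). The adult one was 4.56 ± 0.97 without the block (adjusted p = 0.08) and 4.35 ± 0.66 with it (adjusted p = 0.00812).

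Ifi47, an effector, had the second highest mean level per length with PBS, after Irgm1. It was at 14.48, 14.1 and 12.8 CPM in embryonic PBS libraries and at 65.7, 63.8 and 245 CPM with LPS. Adult libraries showed 25.2, 28.2 and 23.7 CPM with PBS and 35.9, 71.0 and 47.8 CPM with LPS. The adult treatments did not overlap, and adult LPS replicate 1 was the closest to the PBS libraries. The embryonic log2 fold change was 3.17 ± 0.50 (adjusted p = 0.00929, edgeR), and the adult one was 1.01 ± 0.47 (adjusted p = 0.933), or 0.95 ± 0.38 with the block (adjusted p = 0.228).

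Tgtp1 and Tgtp2 are near-identical neighbours, effectors first described in T cells. Tgtp1 was at 0.542, 0.853 and 0.598 CPM in embryonic PBS libraries and at 59.4, 13.5 and 183 CPM with LPS. Adult Tgtp1 values were 4.46, 1.68 and 1.26 CPM with PBS and 7.51, 15.8 and 7.51 CPM with LPS. Its embryonic LPS values spread the most widely of all members relative to the lowest value. The Tgtp1 log2 fold change was 6.99 ± 1.00 in embryonic stroma (adjusted p = 0.00603, edgeR) and 2.05 ± 0.81 in adult stroma (adjusted p = 0.686, or 0.132 with the block).

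Tgtp2 was at 2, 1 and 6 reads in embryonic PBS libraries, or 0.0602, 0.0305 and 0.179 CPM, and at 9.49, 4.04 and 52.2 CPM with LPS. Adult Tgtp2 values were 0.256, 0.578 and 0.204 CPM with PBS and 0.683, 7.71 and 2.504 CPM with LPS. Tgtp2 thus entered the tests only through its LPS groups, and 2 of its embryonic PBS libraries were at or under 3 reads, so the size of its fold change rests on very few reads. The log2 fold change was 7.86 ± 1.38 in embryonic stroma (adjusted p = 0.0142, edgeR). The adult one was 3.42 ± 1.14 without the block (adjusted p = 0.464) and 3.19 ± 0.38 with it (adjusted p = 0.00249).

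**Figure D2:**
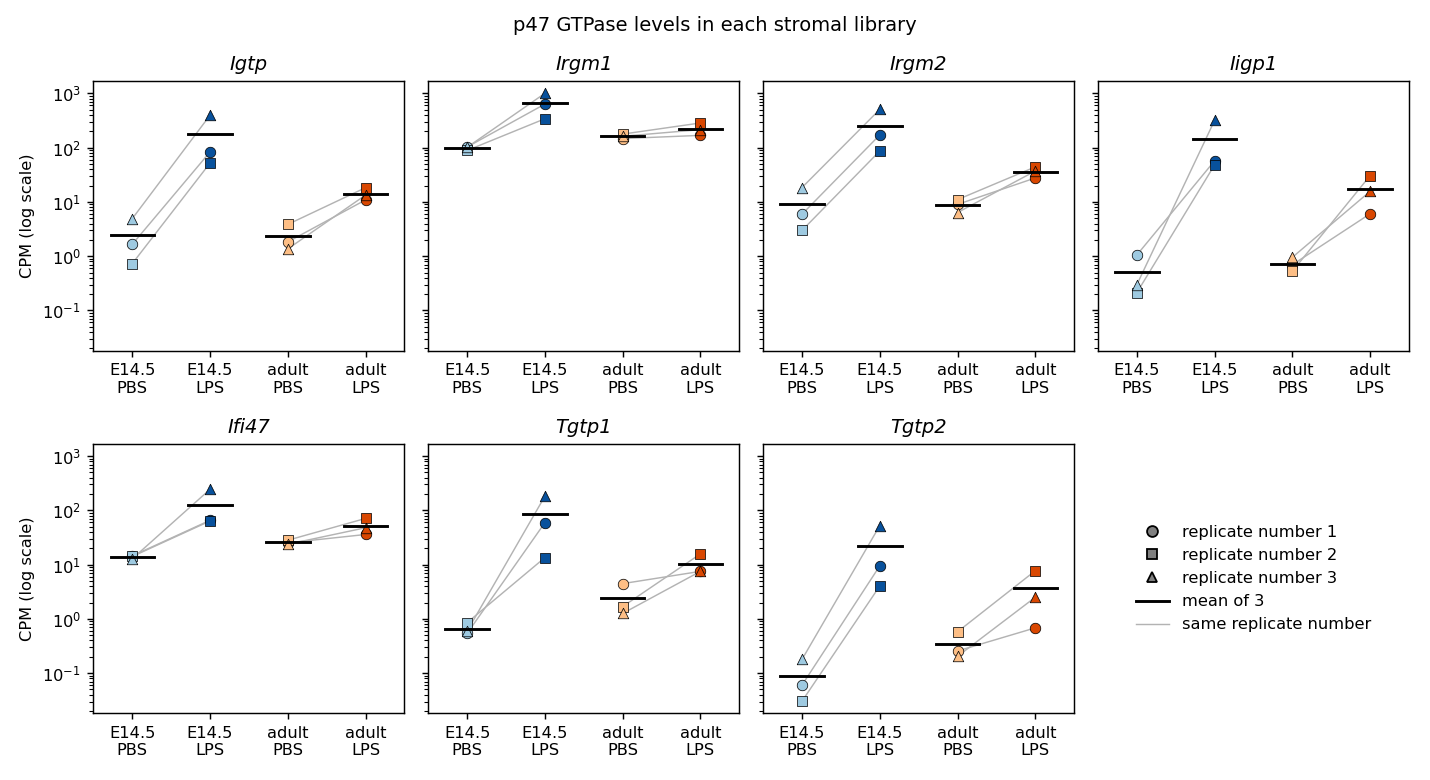
CPM of each p47 GTPase in all 12 libraries, on a log axis shared by all panels. Symbols give the replicate number, thin lines join libraries of the same number within a stage, and black bars are means of 3. With LPS, embryonic replicate 3 is the highest library for all 7 genes, and Irgm1 starts from the highest level, at 88.9 to 178 CPM with PBS.

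Reads of Tgtp1 and Tgtp2 are hard to assign to 1 of the genes. Their longest GENCODE M21 coding transcripts, of 2823 and 2810 bases, were 99.3% identical, and of all stretches of 75 bases, the read length, 87.7% in Tgtp1 and 85.2% in Tgtp2 also occurred in transcripts of another gene. The deposited counts hold uniquely mapped reads, so reads that fit both genes are not in these levels, and both levels and their ratio are uncertain. Added together, Tgtp1 and Tgtp2 rose by a log2 fold change of 7.14 ± 1.02 in embryonic stroma (adjusted p = 0.006, edgeR) and changed by 2.30 ± 0.83 in adult stroma (adjusted p = 0.556, or 0.0945 with the block). For the other 5 members the shared stretches were 0% in Irgm1 and Iigp1, 2.3% in Ifi47, 3.78% in Irgm2 and 8.37% in Igtp. Reads on the opposite strand were 0.19% (Ifi47) to 1.55% (Tgtp2) of the reads on both strands.

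Most of the family lies in clusters on chromosome 11 (RefSeq, GRCm38.p6). Irgm1 (chr11:48865245-48871420), Tgtp1 (chr11:48985329-48992246) and Tgtp2 (chr11:49057196-49064212) lie on the minus strand and Ifi47 (chr11:49076587-49096987) on the plus strand of 1 cluster. Igtp (chr11:58199556-58207592) and Irgm2 (chr11:58214977-58222783) follow each other on the plus strand of the other. GENCODE M21 also lists longer transcript models that overlap Igtp from Irgm2, Tgtp1 from Gm12185 and Ifi47 from Olfr56 on the same strand, and the treatment of reads in such overlaps is not given in the sources used here.

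Per kilobase of full transcript length, the mean levels with PBS put the leading members in the same order at both stages. Irgm1 led with 43.3 ± 3.44 CPM per kb in embryonic and 71.9 ± 6.80 in adult PBS libraries (mean ± SD, n = 3), followed by Ifi47 with 7.79 ± 0.493 and 14.49 ± 1.28. Irgm2 (2.63 ± 2.37 and 2.54 ± 0.674 CPM per kb) and Igtp (1.21 ± 1.09 and 1.16 ± 0.654) came next with overlapping ranges. Tgtp1, Iigp1 and Tgtp2 were below 1 CPM per kb of full length on average in both PBS groups. Most of the Tgtp1 transcript cannot hold uniquely mapped reads, however, and per kilobase of uniquely mappable length its mean level was 1.97 ± 0.491 CPM per kb in embryonic and 7.31 ± 5.15 in adult PBS libraries. On that scale Irgm2 was at 2.80 and 2.70 and Igtp at 1.37 and 1.31 CPM per kb, so that the place of Tgtp1 depends on the length used and differs between the stages. With LPS in embryonic stroma Irgm1 stood at 293 ± 147 CPM per kb, and Igtp (87.7 ± 94.2), Irgm2 (73.8 ± 64.3), Ifi47 (70.4 ± 58.7) and Iigp1 (45.4 ± 49.3) followed with overlapping ranges. Within the libraries, Igtp was above Irgm2 in 2 of 3, Irgm2 above Ifi47 in 2 of 3 and Ifi47 above Iigp1 in 3 of 3. In adult LPS libraries, over full length, the order of these was Irgm1 (98.7 ± 26.0 CPM per kb), Ifi47 (29.1 ± 10.1), Irgm2 (10.5 ± 2.401) and Igtp (7.02 ± 1.87). The adult LPS ranges of Irgm1, Ifi47 and Irgm2 did not overlap, and those of Irgm2 and Igtp did.

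Each member had its larger mean response to LPS in the embryonic stroma, and the test of that difference depended on the replicate block. The difference between the stages' log2 fold changes ranged from 2.17 (Ifi47) to 4.94 (Tgtp1) without the block. Then 0 of 7 members passed, as did 0% of all genes. An unadjusted p under 0.05 was found for 7 of 7 members, against 293 of the 13038 tested genes. DESeq2 called 2 members, against 23 of all tested genes. With the block, 4 of 7 passed (0.537% of all genes). Irgm2 had a difference of 2.78 ± 0.21 (adjusted p = 0.00119, edgeR), Igtp of 3.41 ± 0.29 (adjusted p = 0.00199), Irgm1 of 2.20 ± 0.32 (adjusted p = 0.0236) and Tgtp2 of 4.61 ± 0.69 (adjusted p = 0.0287). Iigp1 (3.397 ± 1.12, adjusted p = 0.396), Ifi47 (1.90 ± 0.54, adjusted p = 0.29) and Tgtp1 (4.53 ± 1.03, adjusted p = 0.152) did not pass. When each same-numbered pair was left out in turn, Igtp and Irgm2 passed all 6 times, whereas Irgm1 missed the thresholds without embryonic replicate 1 or 3 or any 1 adult pair, and Tgtp2 without embryonic replicate 1 or 3 or adult replicate 2 or 3.

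The response was also taken within same-numbered pairs of libraries. On log2 CPM with a prior count of 2, Irgm2 rose by 4.84, 4.83 and 4.78 in embryonic pairs 1, 2 and 3, although its LPS level differed several-fold between them, and by 1.61, 2.00 and 2.53 in the adult pairs. Igtp rose by 5.60, 6.03 and 6.31 in the embryonic pairs and by 2.53, 2.23 and 3.23 in the adult pairs. The third regulator, Irgm1, rose by 2.63, 1.94 and 3.31 in the embryonic pairs. For the effector Iigp1 the values were 5.68, 7.42 and 9.76 in the embryonic pairs and 3.00, 5.68 and 3.95 in the adult pairs. Every embryonic pair difference was above every adult one for 7 of 7 members, against 9.66% of all genes, but for Iigp1 the lowest embryonic and the highest adult value were equal to 2 decimals.

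**Figure D3:**
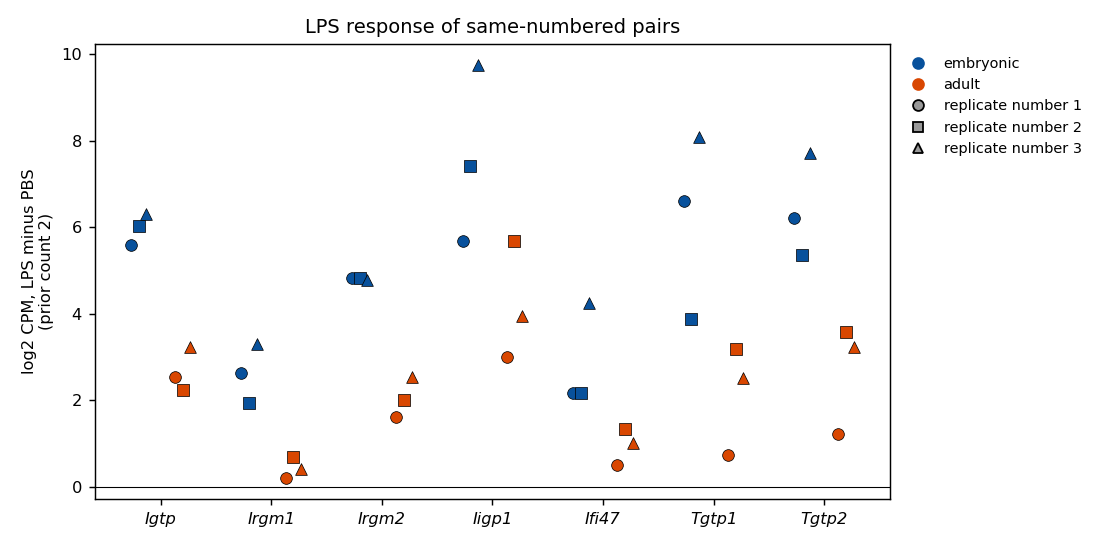
Difference in log2 CPM (prior count 2) between the LPS and the PBS library of the same replicate number, for each p47 GTPase and stage. Symbols give the replicate number. The 3 embryonic Irgm2 points lie between 4.78 and 4.84 and those of Iigp1 between 5.68 and 9.76, and the adult points lie lower for every gene, the highest adult Iigp1 point being level with the lowest embryonic one.

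The separation of the groups without any model was also counted. Every embryonic LPS library was above every embryonic PBS library for 7 of 7 members, against 7.59% of all genes, and the same held in adult stroma for 6 of 7, all but Irgm1, against 9.1%. Every embryonic LPS library was above every adult LPS library for 4 of 7, against 13.4%: Igtp, Irgm1, Irgm2 and Iigp1. Of the remaining members, Ifi47, Tgtp1 and Tgtp2 each had at least 1 embryonic LPS library below the highest adult one.

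**Figure D4:**
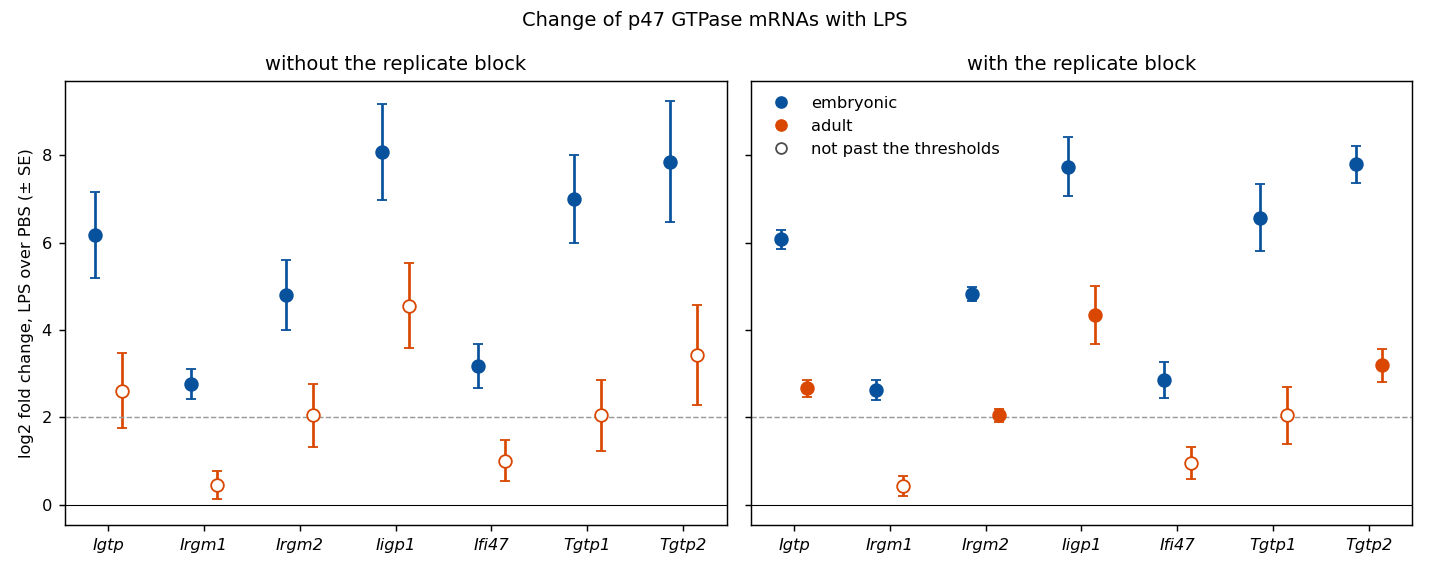
Log2 fold change of each p47 GTPase, LPS over PBS, with its SE, from 3 against 3 libraries in embryonic and adult stroma, without and with the replicate block. Filled points passed an adjusted p under 0.05 and a log2 fold change of at least 2 (dashed line). Embryonic points are filled in both panels, while in adult stroma Igtp, Irgm2, Iigp1 and Tgtp2 are filled only with the block.

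Between the stages, no member passed the thresholds under PBS. Embryonic minus adult log2 differences ranged from -1.89 (Tgtp1, SE 0.88) to 0.08 (Igtp, SE 0.85), and 0 of 7 members passed as lower in embryonic stroma, against 1.31% of all genes. Only Irgm1, with a difference of -0.73 ± 0.33, had an unadjusted p under 0.05, against 2586 of the 13038 tested genes. DESeq2 called 0 members, against 695 of all tested genes. Every embryonic PBS library was nevertheless below every adult PBS library for 4 of 7 members, Irgm1, Ifi47, Tgtp1 and Tgtp2, against 11.9% of all genes. Under LPS all 7 were higher on average in embryonic stroma, and 1 of 7 passed, against 1.91% of all genes. That 1 was Igtp, with a log2 difference of 3.64 ± 0.87 (adjusted p = 0.0407, edgeR). Irgm1 had an adjusted p of 0.0279 and a log2 difference of 1.57, below the fold threshold. These comparisons share libraries with those of LPS against PBS.

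The members varied together over the libraries. Over all 12 libraries, the log2 CPM of the 21 pairs of members correlated with r from 0.908 to 0.996 and a median of 0.945, the closest pair being Igtp and Irgm2. The libraries share their treatment groups, so these values describe a common pattern and no more. The genes outside the family whose log2 CPM followed the mean of the members most closely were I830012O16Rik, Ddx58, Oas1b, Usp18 and Ifit3, with r from 0.982 to 0.986 over 12 libraries. Ddx58 encodes the RNA sensor RIG-I, Oas1b belongs to the oligoadenylate synthetases, Usp18 removes ISG15 and Ifit3 is an antiviral protein. Embryonic Usp18 was at 1.36 ± 1.16 CPM with PBS and 188 ± 155 CPM with LPS, and adult Usp18 at 2.06 ± 0.377 and 14.9 ± 5.48 CPM (mean ± SD, n = 3).

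Embryonic replicate 3 was the highest LPS library for all 7 members and also the embryonic library with the most macrophage marker RNA. The 7 members summed to 1083, 610 and 2709 CPM in embryonic LPS replicates 1, 2 and 3, and the 11 macrophage markers to 149, 740 and 1525 CPM in the same libraries. Replicate 1 thus exceeded replicate 2 in members while it was lower in macrophage markers. Of the macrophage markers 0 of 11 passed between LPS and PBS at either stage by edgeR, and 0 had an unadjusted p under 0.05. With the block 0 passed both thresholds, with 2 in embryonic and 1 in adult stroma at an unadjusted p under 0.05. The 2 were Ptprc, the common leukocyte antigen, with an embryonic log2 fold change of 1.84 ± 0.26 (adjusted p = 0.00283, edgeR), and Fcer1g, a signalling chain of Fc receptors, with 1.07 ± 0.23 (adjusted p = 0.0234), both below the fold threshold. Ptprc was at 7.53, 9.75 and 59.1 CPM with PBS and at 19.5, 64.4 and 162 CPM with LPS in embryonic replicates 1, 2 and 3. Over the 12 libraries their r with the mean of the members ran from 0.037 to 0.417. With embryonic pair 3 left out, 7 of 7 members still passed in embryonic stroma with the block, and the part of macrophages in the level of the members was not tested.

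In adult stroma, replicate 2 was the highest LPS library for all 7 members, with a sum of 473 CPM against 257 and 339 CPM in replicates 1 and 3. It was also the adult library with the most endothelial marker RNA, at 1718 CPM with LPS against 14.1 and 352 CPM. Under PBS the library of the same replicate number held 224 CPM of members, against 189 and 196 CPM in the others. With adult pair 2 left out, Iigp1 no longer passed in the blocked fit (log2 fold change 3.65, adjusted p = 0.0573, edgeR), while Igtp, Irgm2 and Tgtp2 did. The part of endothelial cells was not tested.

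**Figure D5:**
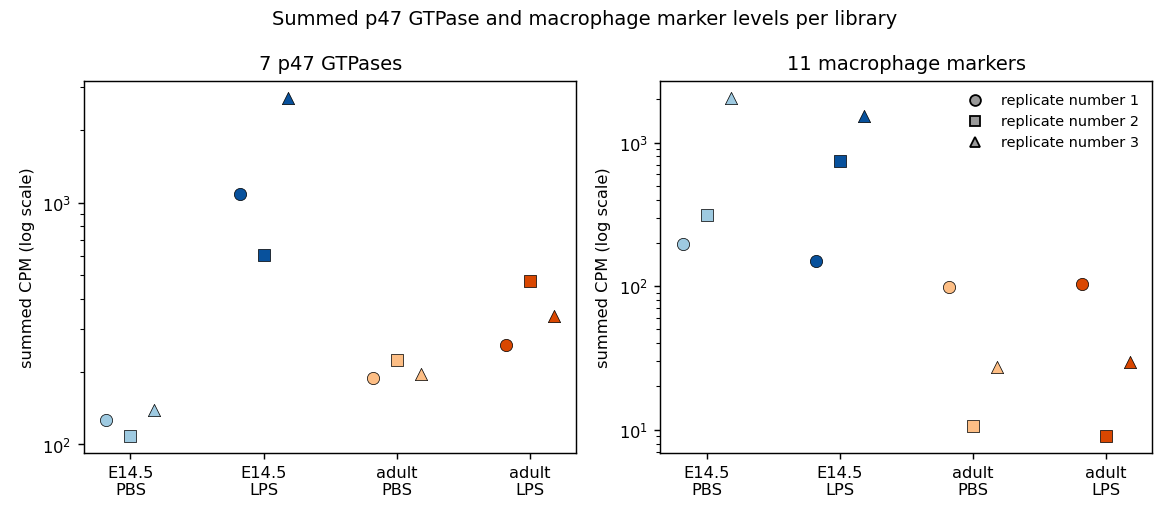
Summed CPM of the 7 p47 GTPases and of the 11 macrophage markers in each library, on log axes that differ between the panels. Symbols give the replicate number. Members are higher with LPS at both stages, and macrophage markers differ by stage, at 149 to 2044 CPM in embryonic and 8.97 to 104 CPM in adult libraries.

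The rest of the p47 family was read from 10 further listed genes, of which 8 were tested. In embryonic stroma 5 of 8 rose upon LPS and 2 of 8 did so in adult stroma, against 1.87% and 0.422% of all genes. With the block 6 and 5 rose, against 3.02% and 1.6%. The 6 that rose had passed the filter on low counts only through their LPS groups, so they had to differ and their number is a description. Gm4841 and F830016B08Rik, neighbours of Iigp1 on chromosome 18 (Iigp1 itself is at chr18:60373616-60392634), rose at both stages. Gm4841 was at 0 to 0.0299 CPM in embryonic and 0 to 0.0732 CPM in adult PBS libraries, and at 3.42 to 18.7 CPM and 5.99 to 8.85 CPM with LPS. For F830016B08Rik the LPS ranges were 2.86 to 12.8 CPM in embryonic and 5.27 to 13.0 CPM in adult stroma, so that unlike Igtp these genes overlapped between the stages under LPS. Gm12250, Gm4951 and Gm12185 also passed in embryonic stroma, Gm5431 did so with the block alone, and Gm12250, Gm4951 and Gm5431 passed in adult stroma with the block.

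Gm12185 was the 1 further family gene whose response differed between the stages with the block, by 4.76 ± 0.56 (adjusted p = 0.00906, edgeR). Gm12185 had entered the tests only through its LPS groups. It went from 0.151, 0.183 and 0.329 CPM to 7.14, 3.69 and 26.3 CPM in embryonic stroma. The adult libraries went from 0.293, 0.722 and 0.681 CPM to 0.586, 1.81 and 0.777 CPM. The treatments were far apart in embryonic stroma and overlapped in adult stroma, but 149 of the stretches of 75 bases in Tgtp1 also occurred in Gm12185, so its counts are uncertain too. Irgq, a divergent member of the family, was at 74.9 to 90.1 CPM in the PBS libraries of both stages and had log2 fold changes of 0.45 ± 0.14 and 0.76 ± 0.14 in embryonic and adult stroma (adjusted p = 0.192 and 0.052). With the block these were 0.45 and 0.74, with adjusted p = 0.0425 and 0.00898, below the fold threshold. 9930111J21Rik1 did not pass at either stage, and 9930111J21Rik2 and Irgc1 were too low to be tested.

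Of 14 inducers and transducers of the interferon response, 13 were tested. Upon LPS 6 of 13 rose in embryonic and 1 of 13 in adult stroma, against 1.87% and 0.422% of all genes. With the block 6 and 2 did, against 3.02% and 1.6%. Ifnb1, among the 6, had entered the tests only through its embryonic LPS group, so its call is a description. The adult one was Irf1, a transcription factor of interferon signalling, named here after its value was seen. Ifnb1, which encodes interferon beta, was at 0 reads in all 6 PBS libraries, at 1.33, 12.6 and 24.1 CPM in embryonic LPS libraries and at 1.11, 0.154 and 0.259 CPM in adult LPS libraries. Against a floor of 3 reads in each PBS library, its mean with LPS was at least 140-fold higher in the embryonic groups and at least 4.26-fold higher in the adult ones. Embryonic replicate 1 had the least Ifnb1 of its group but not the lowest members. Both were measured at 6 hours only, and the part of interferon beta in the level of the members was not tested. Ifng was below the filter and not tested.

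Stat2, a part of the factor that binds the ISRE, rose from 7.62, 5.67 and 20.0 CPM to 135, 102 and 386 CPM in embryonic stroma. Adult Stat2 was at 9.30, 17.2 and 11.99 CPM with PBS and at 26.6, 51.8 and 41.6 CPM with LPS. Its levels followed the order of Irgm2 in the embryonic libraries, lowest in replicate 2 and highest in replicate 3 under both treatments. In adult LPS libraries the 2 genes also shared their order, but with PBS Irgm2 was lowest in replicate 3 and Stat2 in replicate 1. With the block the response of Stat2 differed between the stages by 2.57 ± 0.11 (adjusted p = 0.000218, edgeR). Socs1, an inhibitor of the same pathway, had an embryonic log2 fold change of 4.66 ± 0.66 (adjusted p = 0.00597) and an adult one of 1.47 ± 0.60 (adjusted p = 0.737).

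Guanylate binding proteins (GBPs) work with p47 GTPases at pathogen vacuoles. Of 11 sought, Gbp2b was not among the listed genes, and 8 were tested. Of the 8, 6 rose in embryonic and 3 in adult stroma, against 1.87% and 0.422% of all genes. With the block 8 and 7 did, against 3.02% and 1.6%. Gbp5 was at 0, 0 and 0.239 CPM in embryonic PBS libraries and at 62.5, 192 and 641 CPM with LPS. Adult Gbp5 was at 0.183, 0.578 and 0.341 CPM with PBS and at 54.1, 83.8 and 41.6 CPM with LPS. Gbp5 thus passed at both stages (adjusted p = 0.00188 and 0.0131, edgeR), where none of the 7 members passed in adult stroma without the block. Gbp6 passed in embryonic stroma, and Gbp11 did so only with the block (adjusted p = 0.00349, against 0.0551 without it). Gbp11 had 0 reads in all PBS libraries and a mean at least 54.7-fold above the floor of 3 reads with embryonic LPS. Of the 8 tested, 5 had entered the tests only through their LPS groups, Gbp5 and Gbp11 among them.

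Of 12 genes of the autophagy machinery that places p47 GTPases and GBPs on vacuoles, all were tested. In embryonic stroma 1 rose and in adult stroma 0, against 1.87% and 0.422% of all genes. At so low an adult share, 0 of 12 does not set this list apart. Its medians on the log2 scale were 0.06 and 0.02. Without the block 2 of the 12 had an unadjusted p under 0.05 in adult stroma, against 727 of the 13038 tested genes. The embryonic gene was Trim21, an antibody receptor in the cytosol, from 3.88, 1.37 and 7.62 CPM to 55.5, 49.9 and 158 CPM, and with the block it rose in adult stroma as well, with a log2 fold change of 2.52 ± 0.30 (adjusted p = 0.00255, edgeR). Sqstm1, an adaptor of autophagy, had log2 fold changes of 1.14 ± 0.27 and 1.15 ± 0.27 in embryonic and adult stroma (adjusted p = 0.057 and 0.131), and Gabarapl2 one of 0.27 in embryonic stroma (adjusted p = 0.965).

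Leaving out libraries touched the embryonic calls only without the block. Without embryonic PBS replicate 1, 3 of 7 members passed, and without embryonic PBS replicate 2, 6 of 7 passed, while their log2 fold changes moved little. Over the 12 fits that each left out 1 library, 90 to 297 of all tested genes passed upwards, against 244 with every library. Fitted on the 6 embryonic libraries alone, the log2 fold changes ran from 2.74 (Irgm1) to 8.06 (Iigp1) and 0 of 7 members passed, with adjusted p from 0.107 to 0.198. With the block, 7 of 7 members passed after any 1 pair was left out, and in adult stroma 2 to 5 did, the fewest without adult replicate 3. Of all tested genes, 344 to 427 passed upwards in embryonic and 143 to 225 in adult stroma in these fits.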

How the data were processed

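RNA-seq was carried out on 12 libraries of stromal cells, 3 in each of 4 groups taken from the sample labels. The authors trimmed single-end reads of 75 bases with Trim Galore, mapped them to GRCm38.p6 with STAR and kept uniquely mapped reads. The deposited values are raw counts per gene symbol, without normalization, and the column for the sense strand was used. Genes above 0.5 CPM in all libraries of at least 1 group were tested (13038 genes) with edgeR 4.0.16 in R 4.3.3, with TMM normalization and the quasi-likelihood test. The SE is the log2 fold change divided by the square root of F. A call needed an adjusted p under 0.05 and a log2 fold change of 2 or more in size.

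Replicate numbers 1 to 3 in each group come from the labels, and whether a number marks 1 culture is not stated. Deviations from the group means of same-numbered LPS and PBS libraries correlated with r from 0.71 to 0.784 in embryonic and 0.61 to 0.85 in adult stroma, and those of other numbers with -0.749 to 0.022, so a fit blocked on the replicate number, separately in each stage, is given where it changes a call. No 2 libraries of a group were alike within counting noise.

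Alternatives were DESeq2 1.42.0, other size factors, no filter, unstranded counts, other thresholds, each stage alone, and left-out libraries or pairs. Those of the blocked fit were chosen after seeing the data. The tests were tried on simulated data. Sequences came from RefSeq and GENCODE M21, and figures were drawn with matplotlib 3.10.9 in Python 3.11.15. Named genes were the 7 members, all other p47 GTPases, the 3 largest embryonic changes of each further list and the 5 genes most like the members. The members and all lists were chosen with earlier results of these data known. The nucleotide-binding motif of the proteins was not searched here.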

Additional observations from a re-analysis of the deposited data

Results flagged for a closer look

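The response to LPS differed between embryonic and adult stroma for 4 of the 7 p47 GTPases by the interaction of stage and treatment in the fit with the replicate block. The embryonic minus adult log2 fold change was 3.41 for Igtp, 2.20 for Irgm1, 2.78 for Irgm2 and 4.61 for Tgtp2. In each case all 3 embryonic pair differences were above all 3 adult ones, but without the block none of these 4 passed the thresholds. The difference for Tgtp2 rests on 1 to 6 reads in each embryonic PBS library and on reads that could be told from Tgtp1. Stage goes with macrophage marker RNA in these libraries, and its part in the difference was not tested.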

How the results depend on the processing

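The number of members passing changed as follows, and the cause was not tested. In embryonic LPS against PBS, 7 became 0 with that stage alone, and 3 to 7 when 1 library was left out. At an adjusted p under 0.01, Irgm2 and Tgtp2 no longer passed in that comparison (adjusted p = 0.0114 and 0.0142, edgeR). In adult LPS against PBS, 0 became 4 with the replicate block, 3 with DESeq2, 3 with that stage alone, and 0 to 1 with 1 library left out. For the interaction, 0 became 4 with the replicate block and 2 with DESeq2. In embryonic against adult LPS, 1 became 4 with DESeq2 and 0 at an adjusted p under 0.01. The count became 2 without the fold threshold, and 0 to 4 with 1 library left out. Of the 13038 tested genes, DESeq2 called 170 in adult LPS against PBS, 23 for the interaction and 761 in embryonic against adult LPS. With 1 library left out, edgeR called 90 to 297 genes in embryonic and 4 to 91 in adult LPS against PBS. In embryonic against adult LPS it called 23 to 329. With the block and 1 pair left out, it called 344 to 427 genes for embryonic LPS, 143 to 225 for adult LPS and 28 to 88 for the interaction. In the blocked fits, leaving out 1 pair gave 2 to 5 members for adult LPS and 2 to 5 for the interaction, and 7 to 7 for embryonic LPS; the DESeq2 fit with the block also called Tgtp1 for the interaction. Sign changed only in embryonic against adult PBS, for differences near 0: with a block across stages Igtp was at -0.28 and Irgm2 at -0.34, and with 1 library left out Igtp ranged from -0.953 to 0.615 and Irgm2 from -0.979 to 0.465. The block changed no call of embryonic LPS against PBS among the members. Depth limits Tgtp2 most, with 1 read in its lowest library.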
